A study of Homo sapiens with 12 samples.

Results

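Long noncoding RNAs with LINC or SNHG symbols were followed by poly(A) RNA sequencing in Ishikawa, a cell line derived from an adenocarcinoma of the human endometrium. The members were selected on measured level: all genes whose symbol in the count files starts with LINC followed by digits, or is SNHG followed by digits, and whose mean over the 12 libraries was at least 1 CPM (a gene's count as a share of its library's total, scaled to a common total). Of 57 such symbols, 23 met the threshold, namely 16 LINC and 7 SNHG genes, out of 45320 genes in the files. Since the members were chosen by their levels in these libraries, those levels are a description. Of the other 34 symbols, 15 had 0 counts in every library.

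Short hairpins separated the arms. The shARID1A cells carried a hairpin against ARID1A, whose protein binds DNA as part of SWI/SNF, a complex that moves nucleosomes, and the shNC cells carried a control hairpin. Each arm was treated for 8 h with 10 nM 17-beta-estradiol (E2) plus 100 nM fulvestrant, with 10 nM E2 alone, or with the vehicle DMSO. Fulvestrant is an antagonist that also leads to degradation of the estrogen receptor. That gave 6 groups of 2 libraries, or 6 libraries per arm. All cells, controls included, carried a hairpin and had been kept in medium free of phenol red with serum stripped by charcoal, which is low in steroid hormones. The labels do not say how many hairpins or lines stand behind an arm, nor whether libraries of the same group stem from separate cultures. The p-values measure spread among libraries, and that spread may be technical. What ARID1A loss does cannot be told apart here from other ways in which the cell populations of the arms differ.

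SNHG genes are host genes of small nucleolar RNAs, which lie in their introns and are released when the intron is excised. Small nucleolar RNAs guide chemical modification of ribosomal and other RNAs, whereas the spliced host transcript usually carries no long open reading frame, and several such transcripts are degraded by nonsense-mediated decay. LINC is a naming scheme for long RNAs from between protein-coding genes and implies no shared function. Poly(A) libraries measure the spliced host transcript and not the small nucleolar RNA.

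Under current RefSeq names some of the LINC symbols belong elsewhere. LINC00338 is now SNHG20 and LINC00888 is SNHG33, so both count as small nucleolar RNA hosts in RefSeq. LINC00263 is named OLMALINC, LINC00346 PRECSIT and LINC00476 ERCC6L2-AS1. LINC00998, LINC00085 and LINC00854 are listed by RefSeq as the protein-coding genes SMIM30, SPACA6 and CCDC200. All 23 members were matched to RefSeq (GRCh38.p14) by symbol or synonym, and they keep the names of the files below.

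Promoters are shown for 4 members whose plain CPM values in the 2 arms did not overlap. The sequences are from RefSeq on GRCh38.p14 and cover 250 bases before and 50 bases after the annotated start, 5′ to 3′ on the gene's strand. Capitals mark matches to the AP-1 motif TGANTCA or the CCAAT box, and a sequence without capitals held no match to any motif searched. The SNHG1 window is chr11:62855836-62856135 on the minus strand with a G and C content of 60%, the LINC00963 window chr9:129488410-129488709 on the plus strand with 78.0%, the LINC00263 window chr10:100373326-100373625 on the plus strand with 60%, and the LINC00689 window chr7:159008104-159008403 on the plus strand with 48.0%.
SNHG1: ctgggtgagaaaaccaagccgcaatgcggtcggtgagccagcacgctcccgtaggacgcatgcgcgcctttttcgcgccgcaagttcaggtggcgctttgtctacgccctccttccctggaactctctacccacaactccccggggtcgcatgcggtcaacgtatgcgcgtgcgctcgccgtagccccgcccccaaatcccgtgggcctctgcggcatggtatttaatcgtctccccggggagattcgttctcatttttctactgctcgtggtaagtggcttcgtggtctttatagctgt
LINC00963: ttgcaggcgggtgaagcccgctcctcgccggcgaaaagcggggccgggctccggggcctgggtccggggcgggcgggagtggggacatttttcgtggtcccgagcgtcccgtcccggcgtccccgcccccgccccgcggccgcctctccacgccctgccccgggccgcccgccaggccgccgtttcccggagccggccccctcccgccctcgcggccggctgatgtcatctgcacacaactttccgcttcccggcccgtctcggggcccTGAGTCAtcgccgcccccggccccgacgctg
LINC00263: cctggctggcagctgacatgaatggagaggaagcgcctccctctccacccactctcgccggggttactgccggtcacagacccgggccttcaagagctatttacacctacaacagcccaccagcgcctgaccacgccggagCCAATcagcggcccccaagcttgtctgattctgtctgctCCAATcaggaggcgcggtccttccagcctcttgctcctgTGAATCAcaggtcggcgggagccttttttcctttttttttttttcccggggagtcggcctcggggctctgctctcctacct
LINC00689: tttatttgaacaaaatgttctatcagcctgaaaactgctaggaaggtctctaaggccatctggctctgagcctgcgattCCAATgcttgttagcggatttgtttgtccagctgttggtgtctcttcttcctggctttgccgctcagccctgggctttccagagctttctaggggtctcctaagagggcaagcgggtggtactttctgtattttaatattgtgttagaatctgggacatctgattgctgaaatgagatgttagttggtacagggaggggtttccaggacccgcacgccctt
The AP-1 match of LINC00963 begins 20 bases into the RefSeq transcript, counted from 1 at its start in RefSeq. LINC00263 has an AP-1 match 31 bases and CCAAT matches 109 and 70 bases before its RefSeq start. LINC00689 has a CCAAT match 171 bases before its own RefSeq start. RefSeq promoters were found for 20 members, all but SNHG6, LINC00467 and LINC00680. Motifs were searched on both strands, and none of them contains another. The AP-1 motif was in 3 of the 20 windows, against 7.76% of all 27305 RefSeq promoters of this length. CCAAT was in 8 of 20, against 35.7% of all. The E-box CACGTG was in 1 (7.43% of all), the ETS motif GCGGAAGN in 2 (7.37% of all) and the palindromic estrogen response element (GGTCA and TGACC 3 bases apart) in 0 (0.0659% of all). A match is a stretch of letters and not a measured binding site.

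ARID1A itself had 52.4 to 60.04 CPM in the 6 shARID1A libraries (median 55.4), against 113.2 to 126.8 CPM in the 6 shNC libraries (median 121.5). The groups did not overlap, and the log2 fold change was -1.03 (SE 0.04, adjusted p = 3.02e-19 by edgeR's quasi-likelihood test with Benjamini-Hochberg adjustment). Library totals ran from 28810351 to 38657162 counts, at which 3 counts are 0.0776 to 0.104 CPM. Of the epithelial markers, KRT8, KRT18 and MUC1 were abundant while CDH1 averaged 0.24 CPM, CLDN4 0.16 and KRT19 0.06. Their summed level was 600.1 to 629.5 CPM in shARID1A and 977.4 to 1062.5 CPM in shNC libraries, and 5 of the 6 tested were lower in shARID1A cells. Stromal markers summed to 549.5 to 569.0 CPM in shARID1A and 609.9 to 660.5 CPM in shNC libraries, most of it VIM. Of the 4 tested, 3 were lower in shARID1A cells and COL1A1 was higher (45.9 CPM in shARID1A and 31.9 CPM in shNC cells, log2 fold change 0.60, adjusted p = 4.64e-11), with LUM, COL1A2 and PDGFRA near 0. Beside both lists, 20.3% of all genes tested were called higher and 22.8% lower by the same test. Immune markers reached at most 0.624 CPM in shARID1A and 0.798 CPM in shNC libraries with CD3E at 0, and endothelial markers at most 0.263 CPM in shARID1A and 0.291 CPM in shNC libraries with KDR at 0. The part of these marker differences in the results below was not tested, and in bulk RNA fewer cells of a type and less RNA per cell cannot be told apart.

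The most abundant member was SNHG1, whose introns hold several box C/D small nucleolar RNAs, with a mean of 117.3 CPM over 12 libraries. LINC00963, at 114.6 CPM, followed closely, and its range over the libraries (92.5 to 135.1 CPM) enclosed most of that of SNHG1 (102.7 to 138.9 CPM). SNHG6 had 83.5, SNHG17 48.6, SNHG14 47.8, LINC00263 30.2, SNHG5 29.6 and SNHG16 27.1 CPM. The ranges of SNHG17 and SNHG14 overlapped, as did those of LINC00263, SNHG5 and SNHG16. The 6 highest SNHG genes thus stood among the 8 highest members. At the other end LINC00085 had 2.10, LINC00854 1.89 and LINC00471 1.52 CPM, just inside the threshold. LINC00999 at 0.682, LINC00933 at 0.350 and LINC00537 at 0.348 CPM were the nearest below it. All 23 members averaged at least 1 CPM in each arm, so that none entered through 1 arm alone, and all 23 passed the filter on low counts that left 17020 genes.

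Counted per kilobase of annotated exon, the order changed. SNHG6 stood at 67.0 CPM per kb, SNHG1 at 31.2, LINC00998 at 13.6, SNHG5 at 13.4 and LINC00467 at 13.1, whereas LINC00963 fell back to 9.07 CPM per kb. SNHG14, a long transcript of the imprinted Prader-Willi region that spans 440880 bases on chromosome 15, had 1.47 CPM per kb, and LINC00641 was lowest with 0.556 CPM per kb. These values rest on the union of all annotated exons, whether or not the cells use them. Parts of the exons of 8 members are shared with other genes: 35.5% of the exon bases of SNHG6, 30.6% of SNHG16, 27.8% of LINC00085 and 20.04% of LINC00338, and at most 2.56% of LINC00963, SNHG14, LINC00476 and LINC00854. Counting used no strand, so the strand a read came from is not known where genes overlap. AC018755.2, which shares 992 exon bases with LINC00085, had a mean of 0 CPM. Reads on shared bases may thus have been counted for neither gene, which would make the values per kb of such members too low. This was not tested.

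**Figure D1:**
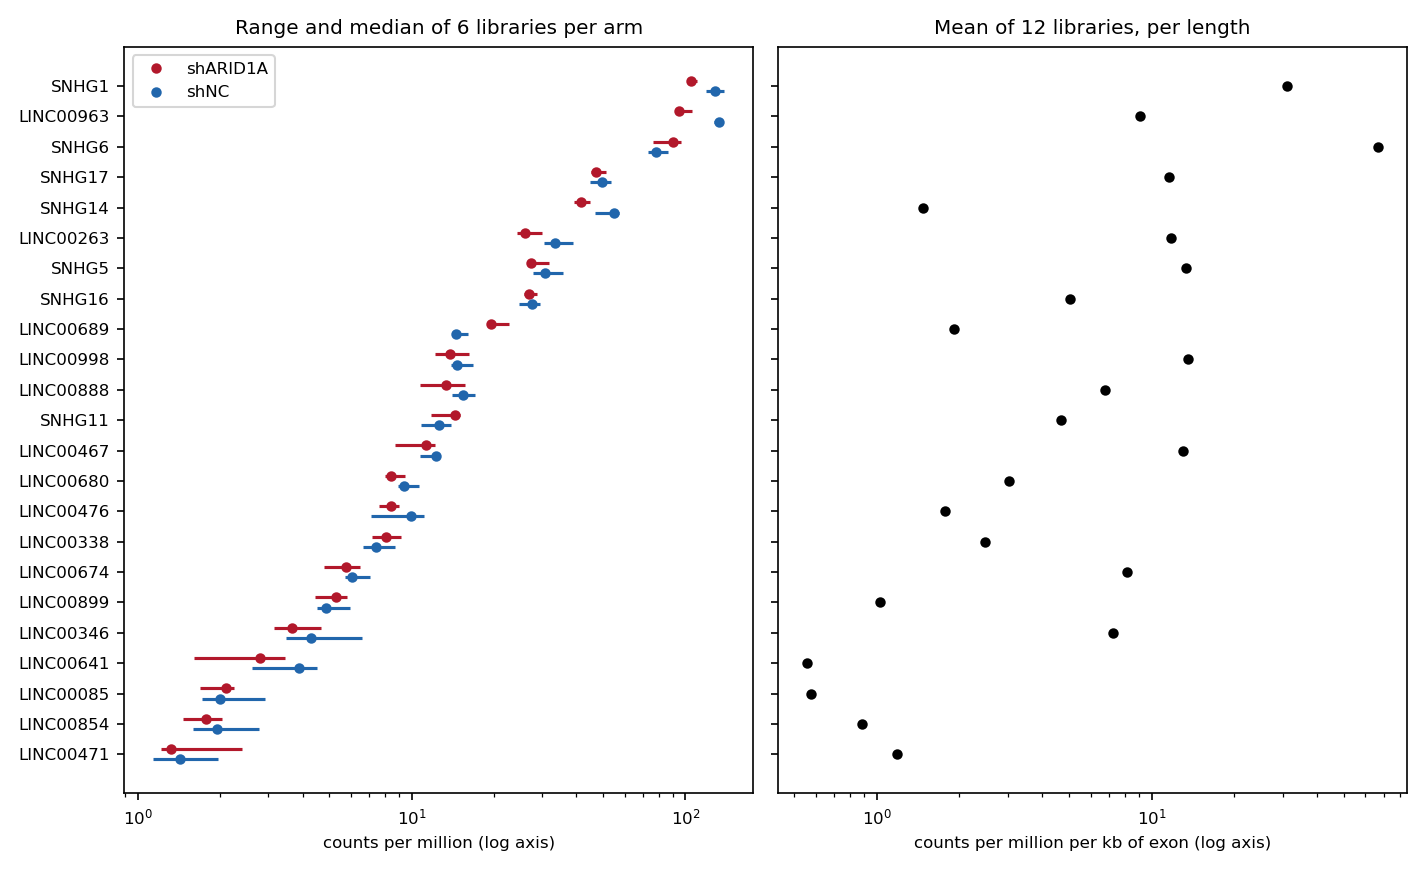
Levels of the 23 members. Left, CPM on a log axis, with a line from the lowest to the highest of 6 libraries and a point at the median for the shARID1A arm (red) above the shNC arm (blue). Right, mean CPM of 12 libraries per kb of exon on a log axis. Members run from SNHG1 at 117.3 CPM down to LINC00471 at 1.52 CPM, and per kb SNHG6 was highest at 67.0.

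Between the arms, averaged over the 3 treatments, 3 members rose in shARID1A cells (LINC00689, SNHG6 and SNHG11) and 5 fell (LINC00963, SNHG14, LINC00263, SNHG1 and LINC00641). The largest increase was that of LINC00689, at 1.42 times the shNC level, and the decrease with the smallest p was that of LINC00963, at 0.778 times. The 8 calls were 34.8% of the members, against a background of 43.1% of all 17020 genes tested (20.3% higher and 22.8% lower) and 51.4% of those with at least 1 CPM. The difference between these shares was not tested. The median log2 fold change of the members was -0.06, against -0.02 for all genes, and its median size was 0.14 against 0.21. Calls are adjusted p-values under 0.05 from edgeR's quasi-likelihood test, with Benjamini-Hochberg adjustment over all genes. Fold changes compare shARID1A with shNC after scaling of libraries by TMM factors.

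**Figure D2:**
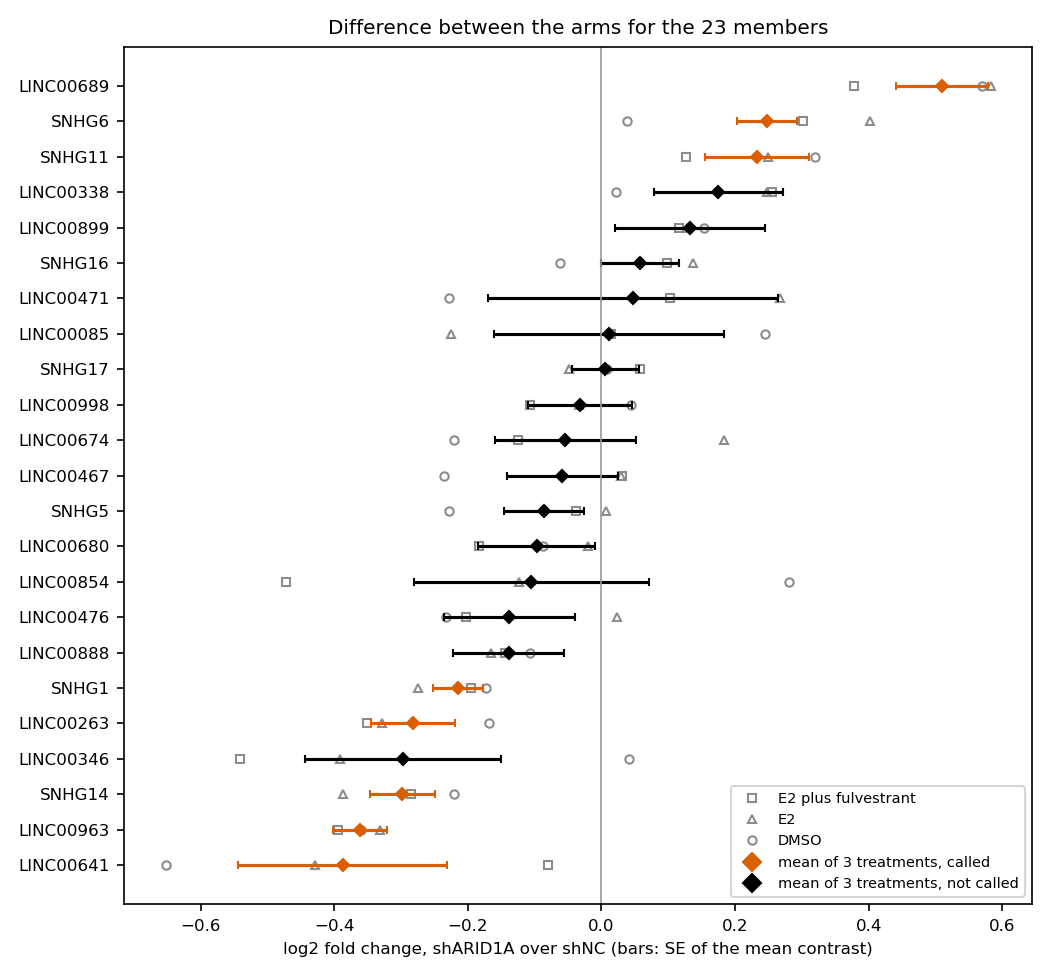
Log2 fold change of shARID1A over shNC for each of the 23 members. Diamonds with bars give the mean over the 3 treatments and its SE, orange where called and black where not, and open grey symbols give each treatment (squares E2 plus fulvestrant, triangles E2, circles DMSO). LINC00689 is at the top with 0.51 and LINC00641 at the bottom with -0.39.

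LINC00689 (hg19 chr7:158799213-158822886, plus strand) had 18.8 to 22.6 CPM in shARID1A libraries (median 19.6), against 14.1 to 16.1 CPM in shNC libraries (median 14.5). Every shARID1A library lay above every shNC library. The log2 fold change was 0.51 (SE 0.07, adjusted p = 2.75e-07), and it stayed between 0.47 and 0.54 when any 1 library was left out.

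SNHG6 (hg19 chr8:67833919-67838633, minus strand), a small nucleolar RNA host, had 76.2 to 96.1 CPM in shARID1A libraries (median 90.3) and 73.1 to 86.3 CPM in shNC libraries (median 77.8). The ranges overlapped, as shARID1A with DMSO replicate 1 (76.2 CPM) and shARID1A with E2 plus fulvestrant replicate 2 (84.2 CPM) lay among the shNC values. The log2 fold change was 0.25 (SE 0.04, adjusted p = 3.14e-05). By treatment it was 0.04 in DMSO, 0.40 with E2 and 0.30 with E2 plus fulvestrant, so the average does not stand for DMSO. Its exons share 364 bases with MCMDC2 on the opposite strand, which had a mean of 0.37 CPM in shARID1A and 0.52 CPM in shNC cells and was not called.

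SNHG11 (hg19 chr20:37075221-37079564, plus strand) had 11.7 to 15.1 CPM in shARID1A libraries (median 14.4) and 10.8 to 13.9 CPM in shNC libraries (median 12.6), with wide overlap. Its log2 fold change was 0.23 (SE 0.08, adjusted p = 0.0158). The call was lost when any of 5 libraries was left out (shARID1A with DMSO replicate 2, shARID1A with E2 plus fulvestrant replicate 2, shNC with DMSO replicate 1, shNC with E2 replicate 2, shNC with E2 plus fulvestrant replicate 1), with adjusted p up to 0.0777 and a log2 fold change of at least 0.19. With libraries scaled by their totals alone it was 0.16 (adjusted p = 0.104).

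LINC00963 (hg19 chr9:132245730-132275947, plus strand) had 92.5 to 105.5 CPM in shARID1A libraries (median 95.1), against 127.2 to 135.1 CPM in shNC libraries (median 133.0). Between the highest shARID1A and the lowest shNC library lay a gap wider than the range within either arm. The log2 fold change was -0.36 (SE 0.04, adjusted p = 8.42e-09).

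SNHG1 (hg19 chr11:62619460-62623386, minus strand) had 102.7 to 109.8 CPM in shARID1A libraries (median 104.7), against 118.9 to 138.9 CPM in shNC libraries (median 128.6). The arms did not overlap. The log2 fold change was -0.21 (SE 0.04, adjusted p = 1.92e-05), and with library totals alone it was -0.29.

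SNHG14 (hg19 chr15:25223730-25664609, plus strand) had 39.2 to 44.7 CPM in shARID1A libraries (median 41.8), against 46.7 to 57.2 CPM in shNC libraries (median 54.9). All shARID1A libraries were below all shNC libraries, and the log2 fold change was -0.30 (SE 0.05, adjusted p = 6.46e-06). LINC00263 (hg19 chr10:102133372-102143125, plus strand) had 24.2 to 30.0 CPM in shARID1A libraries (median 26.0) and 30.3 to 39.0 CPM in shNC libraries (median 33.5). In plain CPM the arms of LINC00263 met but did not overlap. The closest libraries were shARID1A with DMSO replicate 2 (30.0 CPM, TMM factor 0.974) and shNC with E2 replicate 1 (30.3 CPM, TMM factor 1.02). Division by these factors puts the shARID1A library above the shNC library, so the arms overlapped on the scale of the test. The log2 fold change of LINC00263 was -0.28 (SE 0.06, adjusted p = 0.000417 by edgeR's quasi-likelihood test).

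LINC00641 (hg19 chr14:21668238-21675059, minus strand) had 1.61 to 3.45 CPM in shARID1A libraries (median 2.79) and 2.61 to 4.53 CPM in shNC libraries (median 3.89), so that the arms overlapped. The log2 fold change was -0.39 (SE 0.16, adjusted p = 0.0449). By DESeq2 the adjusted p was 0.115. Leaving out any of 7 libraries took the edgeR call away (shARID1A with DMSO replicate 1, either shARID1A library with E2, shARID1A with E2 plus fulvestrant replicate 1, shNC with DMSO replicate 2, shNC with E2 replicate 2, shNC with E2 plus fulvestrant replicate 1), with adjusted p up to 0.222 and log2 fold changes of -0.40 to -0.27.

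**Figure D3:**
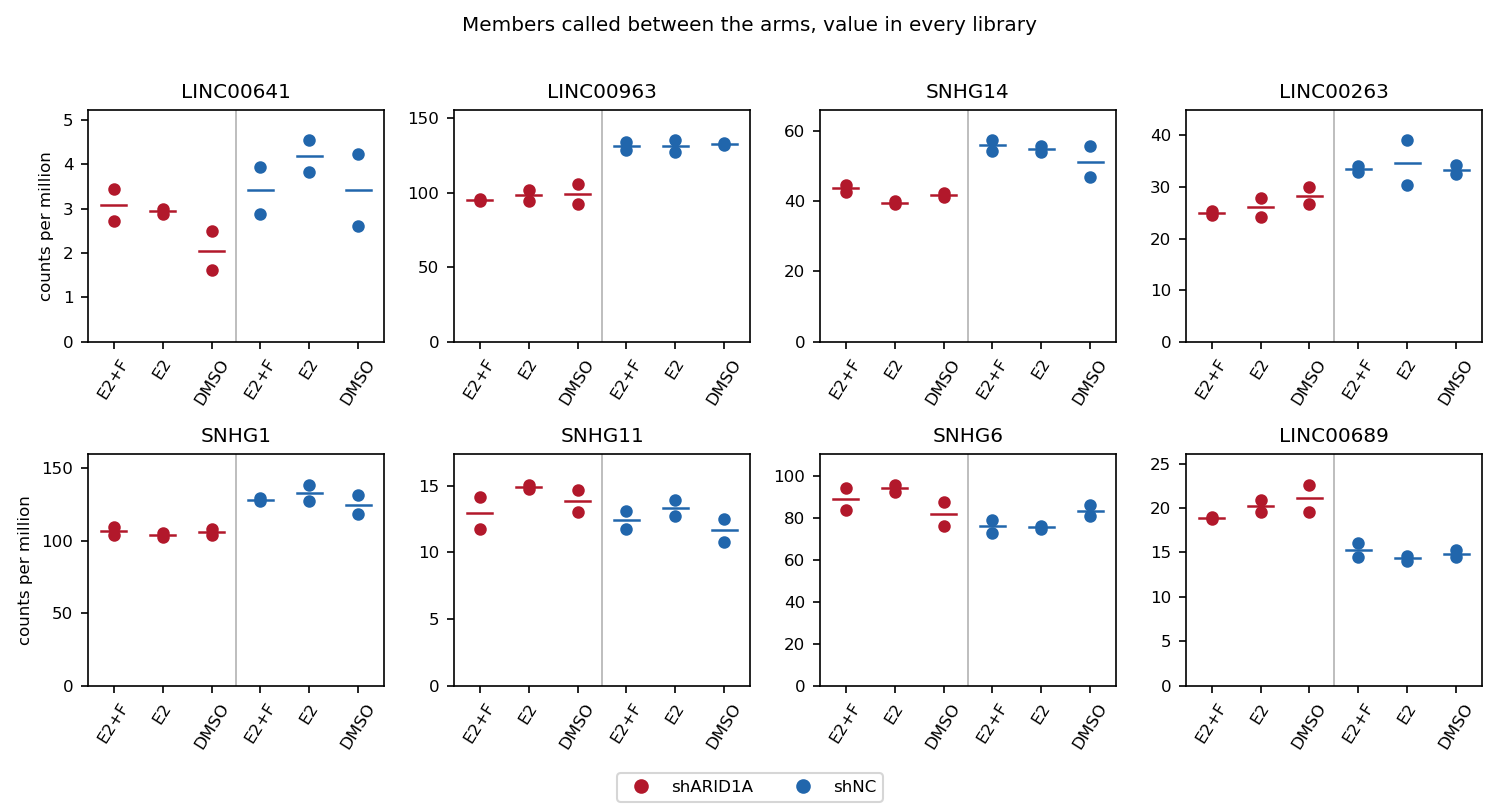
CPM of the 8 members called between the arms in every library. Red points are shARID1A and blue points shNC libraries, each with E2 plus fulvestrant (E2+F), E2 and DMSO from left to right, and short lines are the mean of the 2 libraries of a group. Axes start at 0. LINC00963, SNHG14, LINC00263 and SNHG1 are lower and LINC00689 is higher in every shARID1A library.

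The arms did not overlap in CPM for 5 members, 1 higher and 4 lower in shARID1A, against a background of 22.9% of all genes tested (8.03% higher and 14.9% lower) and 28.3% of those with at least 1 CPM. TMM factors were not applied to these CPM values, for members or background. Among the members with the highest means SNHG17 was not called. It had a mean of 47.4 CPM in shARID1A and 49.8 CPM in shNC cells (log2 fold change 0.01, adjusted p = 0.941).

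The other 15 members did not pass the test. Among the small nucleolar RNA hosts, SNHG5 averaged 27.9 ± 2.10 CPM in shARID1A and 31.2 ± 2.73 CPM in shNC cells (SD, n = 6 libraries each, 3 treatments together), with a log2 fold change of -0.09 (adjusted p = 0.267). SNHG16 averaged 27.0 CPM in shARID1A and 27.3 CPM in shNC cells, and LINC00338 (SNHG20) averaged 8.02 CPM in shARID1A and 7.46 CPM in shNC cells, with log2 fold changes of 0.06 and 0.17. LINC00888 (SNHG33) averaged 13.4 ± 1.66 CPM in shARID1A and 15.4 ± 1.13 CPM in shNC cells, with a log2 fold change of -0.14 (adjusted p = 0.188). LINC00888 passed without shARID1A with E2 replicate 1 (-0.23, adjusted p = 0.0286), and was -0.05 without replicate 2 of that group and -0.09 without shNC with DMSO replicate 1. The estimate furthest from 0 in this group was that of LINC00346, at -0.30 (SE 0.15, adjusted p = 0.104), with 3.70 ± 0.54 CPM in shARID1A and 4.74 ± 1.22 CPM in shNC cells. Leaving out 1 library moved it between -0.15 (without shNC with E2 replicate 2; -0.16 without shNC with E2 plus fulvestrant replicate 1) and -0.41, and it passed without shNC with E2 replicate 1 (-0.40, adjusted p = 0.0226) or shNC with E2 plus fulvestrant replicate 2 (-0.41). For LINC00998 (SMIM30), which RefSeq lists as coding for a small protein, the arms averaged 14.0 CPM in shARID1A and 15.04 CPM in shNC cells, with a log2 fold change of -0.03 (adjusted p = 0.774).

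Scaling bears on these small differences. TMM factors were 0.957 to 0.992 in shARID1A and 1.01 to 1.03 in shNC libraries, so that plain CPM places shARID1A values lower than the fitted fold changes do. With library totals alone, a setting chosen after seeing the data, the median log2 fold change of all genes moved to -0.10, and calls over all genes were 2423 higher and 5145 lower in place of 3458 higher and 3881 lower. Of the members, 2 were then called higher and 8 lower: SNHG11 lost its call, and SNHG5 (-0.16), LINC00346 (-0.37) and LINC00888 (-0.21) gained one as lower. On the plain scale the 7 SNHG genes together had 340.0 to 362.7 CPM in shARID1A and 366.2 to 399.5 CPM in shNC libraries, and the 16 LINC genes 221.2 to 244.3 CPM in shARID1A and 270.8 to 276.4 CPM in shNC libraries. SNHG1 and LINC00963 make up the greater part of the gap in each sum.

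Within single treatments the calls were fewer. With E2 plus fulvestrant 6 members were called, where 24.2% of all genes tested and 29.7% of those with at least 1 CPM were. With library totals alone it was 5, as LINC00689 lost its call. The values that follow are those with TMM factors. LINC00689 at 0.38 and SNHG6 at 0.30 were higher, and LINC00963 at -0.39, LINC00263 at -0.35, SNHG14 at -0.29 and SNHG1 at -0.20 were lower in shARID1A cells, as log2 fold changes. This set rests on single libraries. Without shARID1A replicate 1 the count was 1, without shARID1A replicate 2 it was 3 and without shNC replicate 1 it was 2. LINC00963 kept its call in each of these. Without shNC replicate 2, LINC00263, SNHG1 and SNHG14 lost theirs and LINC00346 gained one.

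With E2 alone the same 6 were called (27.2% of all genes tested and 33.3% of those with at least 1 CPM), with log2 fold changes of 0.58 for LINC00689, 0.40 for SNHG6, -0.39 for SNHG14, -0.33 for LINC00963, -0.33 for LINC00263 and -0.28 for SNHG1. Without shNC replicate 2 the calls of LINC00263 and SNHG1 were lost, which left 4, and without shARID1A replicate 1 that of LINC00263 was. With DMSO, 2 members were called (19.2% of all genes tested and 23.7% of those with at least 1 CPM), LINC00689 at 0.57 (SE 0.12, adjusted p = 0.000609) and LINC00963 at -0.36 (SE 0.07, adjusted p = 0.000286). SNHG1 (-0.17, adjusted p = 0.0624) and SNHG14 (-0.22, adjusted p = 0.0666) did not pass in DMSO. Nor did LINC00263 (-0.17, adjusted p = 0.317) and SNHG6 (0.04, adjusted p = 0.8) by edgeR's quasi-likelihood test in DMSO. DESeq2 called 3 members there, SNHG1 included (adjusted p = 0.0436), and with library totals alone SNHG1, SNHG14 and SNHG5 were called too. SNHG1 and SNHG14 also passed, with LINC00641, when shNC replicate 1 was left out, which gave 5 calls.

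E2 set against vehicle gave no call. Averaged over the arms, edgeR's quasi-likelihood test called 0 of 23 members for E2 against DMSO, where 0.00588% of all genes tested (1 gene) were called, and DESeq2 also called 0. At an unadjusted p under 0.05 the count was 1, as were 4.09% of all genes. LINC00641 had the smallest p. In shARID1A cells it had 2.87 and 3.0 CPM with E2, against 1.61 and 2.49 CPM with DMSO. In shNC cells it had 3.83 and 4.53 CPM with E2, against 2.61 and 4.23 CPM with DMSO, so that the groups overlapped there and not in shARID1A cells. The log2 fold change was 0.42 (SE 0.19, adjusted p = 0.999). SNHG17 was next with 0.10 (SE 0.06, adjusted p = 0.999), and the members' log2 fold changes ran from -0.15 to 0.42 with a median of 0.03, against 0.00 for all genes.

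Adding fulvestrant to E2 likewise moved 0 members past the threshold by edgeR's quasi-likelihood test, where 0.0646% of all genes tested (11 genes) were called. DESeq2 gave an adjusted p for 7 of the 23 members, of which 0 passed, and none for the other 16. At an unadjusted p under 0.05 by edgeR the count was 1, as were 14.6% of all genes. SNHG17 had the smallest p. It had 49.1 and 45.1 CPM with E2 plus fulvestrant, against 46.0 and 51.2 CPM with E2, in shARID1A cells. It had 44.8 and 50.3 CPM with E2 plus fulvestrant, against 53.6 and 53.1 CPM with E2, in shNC cells. In shNC cells both fulvestrant libraries were the lower ones, while in shARID1A cells the groups overlapped. The averaged log2 fold change was -0.13 (SE 0.06, adjusted p = 0.329), and SNHG11 followed with -0.17 (SE 0.09, adjusted p = 0.418).

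**Figure D4:**
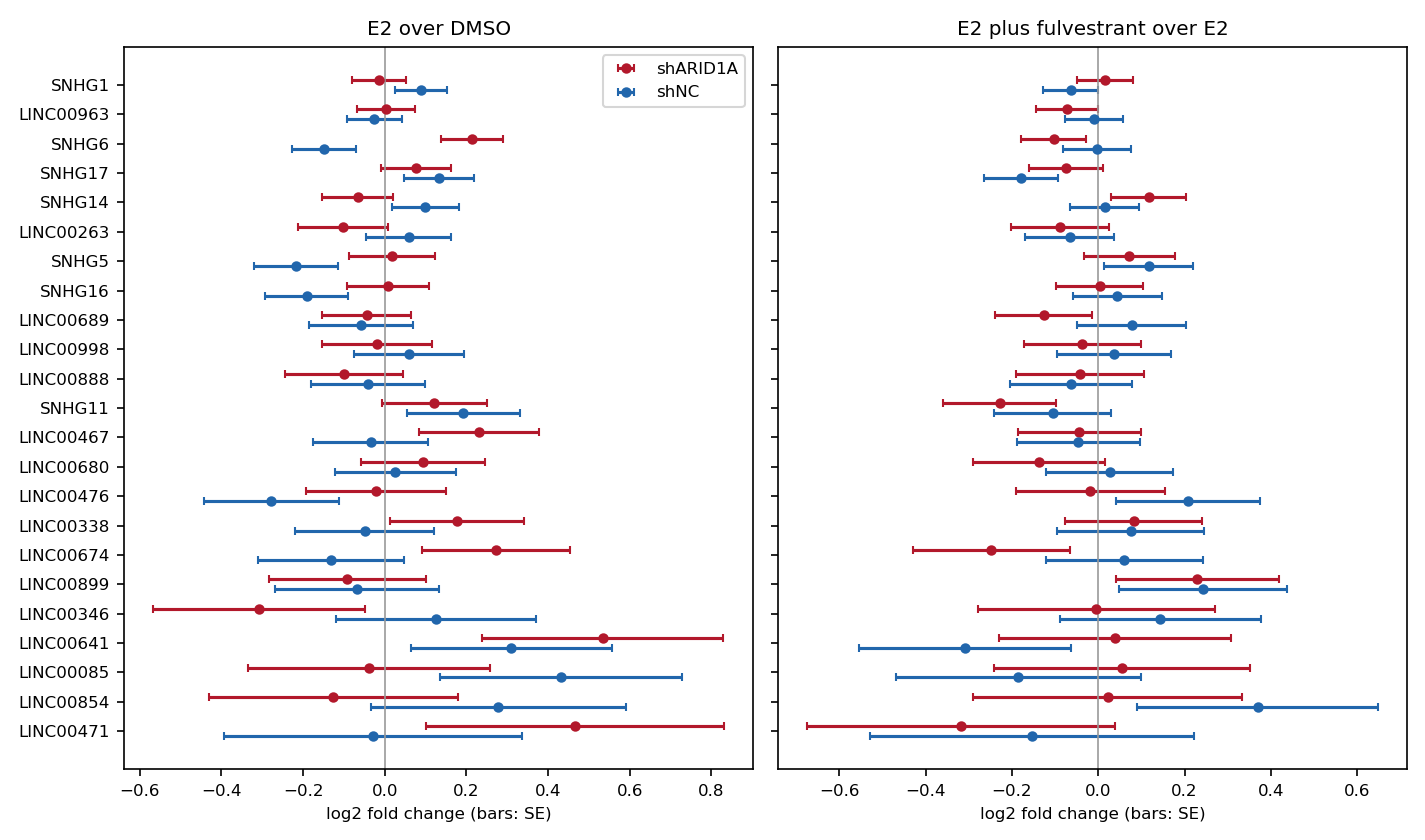
Log2 fold changes with E2 over DMSO (left) and with E2 plus fulvestrant over E2 (right) for the 23 members in order of level, with SE bars, shARID1A in red above shNC in blue. None was called in the average of the arms. The SEs widen towards the members with low counts at the bottom. SNHG6 had 0.21 in shARID1A and -0.15 in shNC cells on the left.

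The difference of the E2 effect between the arms was called for 0 members by edgeR and 0 by DESeq2 (0.0294% or 5 of all genes tested called), with 1 at an unadjusted p under 0.05, as were 6.34% of all genes. The smallest p was that of SNHG6, although members with low counts had larger differences with larger SEs. It had 96.1 and 92.7 CPM with E2, against 76.2 and 88.0 CPM with DMSO, in shARID1A cells, and 76.5 and 74.8 CPM with E2, against 81.2 and 86.3 CPM with DMSO, in shNC cells. Both E2 libraries were above both DMSO libraries in the shARID1A arm and below them in the shNC arm. The E2 effects were 0.21 in shARID1A and -0.15 in shNC cells, and their difference was 0.36 on the log2 scale (SE 0.11, unadjusted p = 0.00225, adjusted p = 0.546 by edgeR's quasi-likelihood test). SNHG5 had a difference of 0.24 (SE 0.15, adjusted p = 0.841). The difference of the fulvestrant effect was called for 0 members by both tools, where 0.0118% (2) of all genes were called, and 0 were at an unadjusted p under 0.05, as were 3.48% of all genes. The smallest p there belonged to LINC00689 (-0.20, SE 0.17, adjusted p = 1) and LINC00674 (-0.31, SE 0.26). With 2 libraries per group the SE of such a difference ran from 0.09 to 0.52 over the members, so that changes of this size were not detectable for the members with low counts.

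Genes beside the members moved in the same direction in some places and in the opposite one in others. SNHG1 starts 132 bases from SLC3A2, head to head in hg19. SLC3A2, the heavy chain of amino acid transporters at the cell surface, averaged 799.0 ± 18.2 CPM in shARID1A and 744.4 ± 27.5 CPM in shNC cells (SD, n = 6 libraries each). It rose where SNHG1 fell, by 0.17 on the log2 scale (SE 0.03, adjusted p = 1.65e-05), and by 0.10 with library totals alone.

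LINC00689 and VIPR2, the gene of a receptor for vasoactive intestinal peptide, are transcribed towards each other, and their 3′ ends lie 260 bases apart. VIPR2 averaged 8.72 ± 1.31 CPM in shARID1A and 4.64 ± 0.60 CPM in shNC cells (SD, n = 6 libraries each). Both rose, VIPR2 by 0.98 on the log2 scale (SE 0.11, adjusted p = 5.77e-09). The counts of both genes were made without regard to strand.

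SNHG14 begins 9 bases after the end of SNRPN, a gene of a small nuclear ribonucleoprotein on the same strand, and overlaps UBE3A, a ubiquitin ligase gene on the opposite strand. SNRPN averaged 55.1 CPM in shARID1A and 63.2 CPM in shNC cells, with a log2 fold change of -0.13 (adjusted p = 0.0257). UBE3A averaged 13.4 ± 1.71 CPM in shARID1A and 17.1 ± 1.28 CPM in shNC cells (SD, n = 6 libraries each), with -0.27 (adjusted p = 0.00578). The counts of SNHG14, of SNRPN and of the UBE3A entry were thus lower in shARID1A cells. That UBE3A entry covers only hg19 chr15:25599180-25601977, which lies wholly inside the span of SNHG14. Counts here too were made without regard to strand. A gene inside SNHG14 on the same strand, named only ENSG00000257151.1 in the files, averaged 2.12 CPM in shARID1A and 4.47 CPM in shNC cells, with -1.0 (adjusted p = 1.69e-05).

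Head to head with LINC00963, at 913 bases, lies ENSG00000261334.1, which averaged 1.62 CPM in shARID1A and 2.57 CPM in shNC cells and fell with it, at -0.62 (adjusted p = 0.00426). HNRNPC, an RNA-binding protein gene 2236 bases from LINC00641 on the same strand, averaged 459.8 CPM in shARID1A and 447.8 CPM in shNC cells. Its log2 fold change was 0.11 (adjusted p = 0.00211), and 0.04 with library totals alone (adjusted p = 0.252). LINC00263 and SNHG11 had no gene within 5 kb.

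Some members without a call lay beside called genes. LINC00476 starts 166 bases from ERCC6L2, head to head. ERCC6L2, whose product resembles the DNA repair helicase ERCC6, averaged 10.5 CPM in shARID1A and 16.1 CPM in shNC cells (log2 fold change -0.54, adjusted p = 7.88e-07), while LINC00476 had -0.14 (adjusted p = 0.274). LINC00338 shares 572 exon bases with SEC14L1, at 75.1 CPM in shARID1A and 90.4 CPM in shNC cells (-0.19, adjusted p = 0.000249). SNHG16 shares 1639 exon bases with ST6GALNAC2, a sialyltransferase gene on the opposite strand, at 9.40 CPM in shARID1A and 7.26 CPM in shNC cells (0.45, adjusted p = 0.000106).

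**Figure D5:**
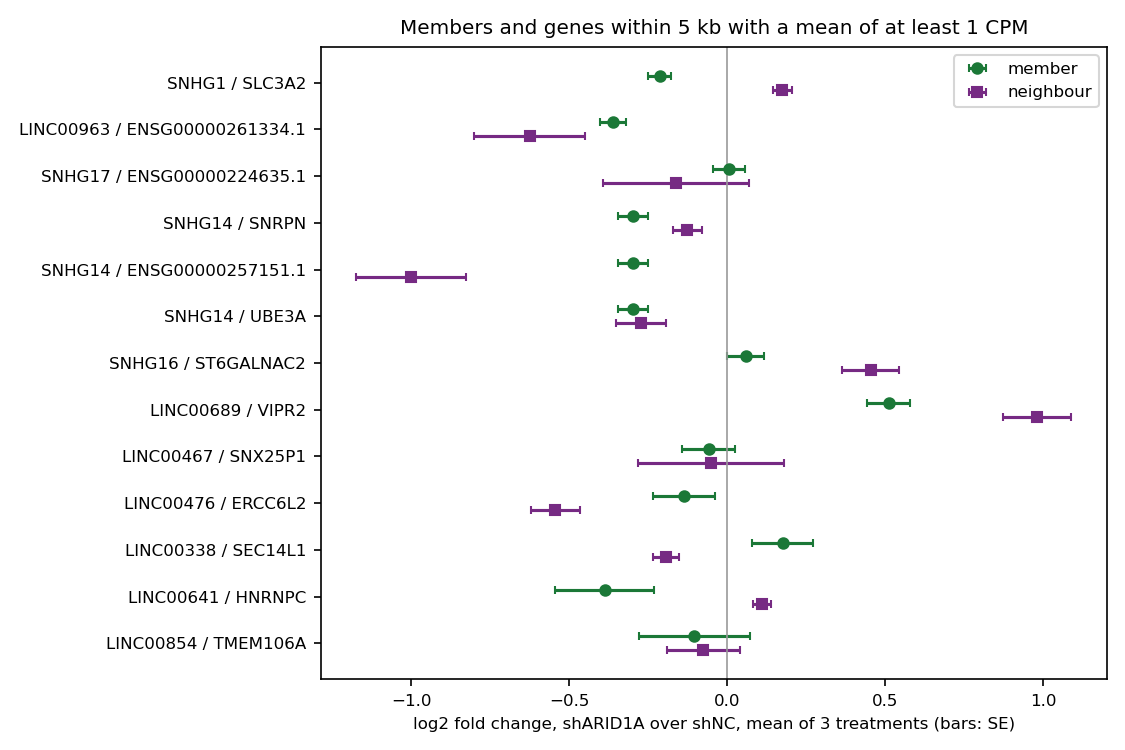
Log2 fold change of shARID1A over shNC, mean of 3 treatments with SE bars, for members (green circles) and their neighbours within 5 kb with a mean of at least 1 CPM (purple squares). SNHG1 and SLC3A2 lie on opposite sides of 0, at -0.21 and 0.17. LINC00689 and VIPR2 both lie above it, at 0.51 and 0.98.

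Proteins and other RNAs tied to these genes were read from lists written with general knowledge. Among noncoding small nucleolar RNA hosts without an SNHG symbol, 2 of 4 listed were tested. DANCR averaged 40.5 ± 2.19 CPM in shARID1A and 36.3 ± 1.51 CPM in shNC cells (SD, n = 6 libraries each) and was called higher (log2 fold change 0.23, SE 0.05, adjusted p = 0.000304). GAS5, which is known for rising when growth stops, averaged 161.4 CPM in shARID1A and 174.7 CPM in shNC cells and was not called (-0.04, adjusted p = 0.389), but was called lower with library totals alone (-0.11, adjusted p = 0.00887).

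Of 13 tested genes for core and assembly proteins of small nucleolar ribonucleoproteins, 3 were higher and 3 lower in shARID1A cells, with a median log2 fold change of 0.01. This is a share of 46.2%, beside 43.1% of all genes tested and 51.4% of those with at least 1 CPM. NHP2, a core protein of the H/ACA class, was higher (0.23, adjusted p = 1.19e-05). NOP58, a core protein of the C/D class, was lower (-0.29, adjusted p = 2.35e-05), as was NOLC1, a nucleolar assembly factor (-0.21, adjusted p = 6.74e-07). RUVBL1, an ATPase that takes part in assembly, was higher (0.13, adjusted p = 0.00112) but not called with library totals alone (0.06, adjusted p = 0.108).

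Of 14 tested nonsense-mediated decay factors, 4 were higher and 3 lower, with a median log2 fold change of -0.01. This share was 50%, beside 43.1% of all genes tested and 51.4% of those with at least 1 CPM. EIF4A3, a part of the exon junction complex, averaged 459.4 ± 10.8 CPM in shARID1A and 344.1 ± 10.6 CPM in shNC cells (SD, n = 6 libraries each) and was higher (0.49, SE 0.03, adjusted p = 3.68e-14). The central helicase UPF1 was also higher (0.26, adjusted p = 3.38e-08), as was SMG5 (0.21, adjusted p = 1.54e-05), while UPF3B was lower (-0.35, adjusted p = 0.0105). Of 6 other named long noncoding RNAs tested, PVT1 was higher (0.18, adjusted p = 0.0104, but 0.11 with adjusted p = 0.12 under library totals alone) and H19, an imprinted RNA, was lower (-0.14, adjusted p = 0.00101). The share called was 33.3%, beside 43.1% of all genes tested and 51.4% of those with at least 1 CPM. OIP5-AS1 had 0.08 (adjusted p = 0.0746), and was called higher with DESeq2's size factors (0.09, adjusted p = 0.0441).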

How the data were processed

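Poly(A) libraries (TruSeq mRNA) had been made from total RNA extracted with TRIZOL, per the labels' protocols. The deposited values are raw counts per gene, which the authors had not normalized. The submitters' processing notes name Trim Galore, cutadapt and FastQC, Subread 2.0.0 and the build hg19. Per the file headers, featureCounts 2.0.0 summed exon reads by gene with no option for strand, read pairs or multiple alignments. The labels write the fulvestrant dose with letters for zeros, and 100 nM was assumed.

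Counts of all 12 libraries were modelled with edgeR 4.0.16 under R 4.3.3: filterByExpr (17020 genes kept), TMM factors, 1 mean per group, glmQLFit and the quasi-likelihood F-test. The 8 contrasts were the knockdown averaged over treatments and in each treatment, E2 against DMSO and fulvestrant added to E2 averaged over arms, and the differences of both effects between arms. Within a contrast, p-values were adjusted over all genes tested by the method of Benjamini and Hochberg. SE is that of the fitted log2 fold change; SD is over the libraries of an arm and so includes treatment. CPM uses library totals only. The code was tested on simulated data. DESeq2 1.42.0, other scalings, no filter, a replicate block and leaving out each library were run beside it.

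Named members were the called ones, those with the highest means, the 2 with the smallest p where none was called, and those next to the threshold. Neighbours are genes overlapping a member or within 5 kb in the files' hg19 annotation, and list genes are the 4 with the smallest p. LINC00338, LINC00888, LINC00346, LINC00998 and SNHG5, MCMDC2, and the neighbours of members without a call were named after their values were seen. Members and gene lists were chosen with earlier results of these data known. RefSeq promoters (GRCh38.p14) were used for sequence only, and no coordinate was converted. No promoter of SNHG14 is shown, because RefSeq gives it a different gene model. For the 4 members shown, the RefSeq start was not matched to the hg19 start used for counts and neighbours, and it may differ. Averaged over 12461 genes with a mean of at least 50 counts, the variance between libraries of a group was 5.19 to 7.97 times that of counting error (chi-square per degree of freedom). This average is not a value for the members, and single genes may lie far from it. Counts and floors cover counting error only.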

Additional observations from a re-analysis of the deposited data

How the results depend on the processing

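LINC00689, SNHG6, LINC00963, SNHG14, LINC00263 and SNHG1 kept their direction and their call in the knockdown averaged over treatments under every alternative run. The averaged knockdown called 7 members by DESeq2 (3 in DMSO) and 10 with library totals alone, against 8, and 6 to 9 when each library was left out in turn. In DMSO it called 5 with library totals alone (2 with TMM), and 2 to 5 without single libraries. With E2 the range was 4 to 6 and with E2 plus fulvestrant 1 to 6. The hormone contrasts and their differences between arms stayed at 0 calls throughout.

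Estimates near 0 changed sign. With library totals alone SNHG17 was -0.068, SNHG16 -0.015, LINC00085 -0.062 and LINC00471 -0.026. Without single libraries SNHG17 ran from -0.027 to 0.034, LINC00998 from -0.10 to 0.033, LINC00085 from -0.075 to 0.11 and LINC00471 from -0.11 to 0.20. The cause was not tested.

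Replicate numbers were not taken to pair the libraries: deviations of same-numbered libraries correlated at 0.12 to 0.28 in 7 of 15 pairs of groups and negatively, down to -0.22, in the other 8. Replicates of shARID1A with DMSO and with E2 correlated with each other and negatively with those of the other 4 groups. Neither the main fit nor a block on the numbers takes up this pattern, and what lies behind it was not tested. The fit with a replicate block called 8 members in the averaged knockdown, 2 in DMSO, 6 with E2, 6 with E2 plus fulvestrant and 0 in the other contrasts. Depth limits members near 1 CPM, where SEs reached 0.22 in the averaged knockdown.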

Other observations

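The files name 14014 genes by Ensembl identifier alone, and the rule on symbols left these out. Of 12880 that matched a symbol in GENCODE or RefSeq tables, 1961 carry a LINC or SNHG symbol there and 104 had a mean of at least 1 CPM (95 LINC and 9 SNHG). In the averaged knockdown 20 of the 104 were called higher and 24 lower by edgeR's quasi-likelihood test. Of all genes tested 20.3% were called higher and 22.8% lower, and of those with at least 1 CPM 25.1% higher and 26.3% lower. SNHG7, at 99.2 CPM over 12 libraries, was higher in shARID1A cells (log2 fold change 0.42, adjusted p = 5.78e-10), and SNHG12 was lower (-0.19, adjusted p = 0.00464). LINC01115 was higher (2.0, adjusted p = 6.11e-09) and LINC01133 lower (-1.30, adjusted p = 5.9e-15). These were chosen after their values were seen.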
